A study of Mus musculus with 4 samples.

Results

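The polyamine genes described here were 9 members chosen by symbol, Odc1, Amd1, Srm, Sms, Sat1, Smox, Oaz1, Oaz2 and Azin1, and all 9 were found among the 22186 genes of the deposited table. RNA was sequenced from MC38, a mouse colon carcinoma cell line, stably transfected with a tetracycline-inducible vector for the chemokine CXCL14 (genotype TetOn-CXCL14). Both groups carried this vector. The 2 control cultures received the solvent PBS, and the 2 DOX-induced cultures received doxycycline at 1 µg/mL, the antibiotic that switches a TetOn promoter on. All cultures were harvested after 72 h. No culture given doxycycline without the vector is among the samples, so an effect of the drug itself and one of CXCL14 cannot be told apart, and the labels do not say whether the screened line was 1 clone. Per the series text, both samples of a group are biological replicates. Values are in TPM (transcript abundance scaled by transcript length and library size). Levels of different genes are set side by side on this scale, which does not correct for reads shared with near-identical copies.

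Polyamines are small positively charged molecules that bind nucleic acids and are needed for growth and translation. Ornithine decarboxylase, encoded by Odc1, makes putrescine from ornithine. Decarboxylated S-adenosylmethionine, supplied by the Amd1 enzyme, then donates the aminopropyl groups with which spermidine synthase (Srm) and spermine synthase (Sms) make spermidine and spermine. Antizymes, encoded by Oaz1 and Oaz2, bind ornithine decarboxylase and send it to the proteasome, while the antizyme inhibitor Azin1, a catalytically inactive relative of the decarboxylase, binds the antizymes instead. Sat1 acetylates spermidine and spermine for export or breakdown, and Smox oxidises spermine back to spermidine. Much of this control acts on translation and on protein turnover, which RNA levels do not measure.

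Antizyme mRNAs carry, within the coding sequence, a site at which ribosomes must shift by 1 base to make the full protein, a step that polyamines favour. The site is shown for both antizymes because these genes moved together in the data. The windows below, read from GENCODE M21 transcripts 5′ to 3′, are 42 bases long and identical at 35 of them. The Oaz1 window is held by 1 coding and 1 intron-retaining transcript, and the Oaz2 window by 3 transcripts annotated as processed or intron-retaining and by none annotated as coding. Capitals mark the codon before the shift and the stop codon of the first frame.
Oaz1: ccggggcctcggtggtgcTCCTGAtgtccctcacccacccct
Oaz2: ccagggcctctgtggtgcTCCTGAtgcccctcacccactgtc
Of the 9 members, 7 had an entry in the RefSeq promoter table (build GRCm38.p6), and Srm and Azin1 had none. The 250 bases before the start site are printed for 3 of them: the member with an entry that rose (Amd1), the member at the entry of the pathway that did not pass the test (Odc1), and the member that fell most (Smox). Capitals mark GGGCGG or its reverse complement CCGCCC, the core letters of a GC box.
Amd1, chr10:40302189-40302438, minus strand: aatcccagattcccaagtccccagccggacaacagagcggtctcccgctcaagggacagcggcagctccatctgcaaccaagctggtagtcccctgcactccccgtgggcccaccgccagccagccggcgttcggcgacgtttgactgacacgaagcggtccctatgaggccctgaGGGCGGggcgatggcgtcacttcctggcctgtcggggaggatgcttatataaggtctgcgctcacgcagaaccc
Odc1, chr12:17544623-17544872, plus strand: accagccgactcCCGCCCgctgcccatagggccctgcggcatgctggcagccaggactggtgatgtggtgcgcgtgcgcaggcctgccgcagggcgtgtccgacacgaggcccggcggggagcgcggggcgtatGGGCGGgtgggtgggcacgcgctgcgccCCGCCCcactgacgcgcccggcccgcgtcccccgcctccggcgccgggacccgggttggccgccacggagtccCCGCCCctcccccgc
Smox, chr2:131491612-131491861, plus strand: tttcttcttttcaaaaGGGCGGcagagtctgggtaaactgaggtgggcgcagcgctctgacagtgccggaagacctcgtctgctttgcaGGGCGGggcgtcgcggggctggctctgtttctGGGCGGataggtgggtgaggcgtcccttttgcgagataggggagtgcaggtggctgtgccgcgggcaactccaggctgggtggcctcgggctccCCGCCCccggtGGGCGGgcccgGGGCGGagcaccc
These letters occurred 1 time in the Amd1 window, 4 times in the Odc1 window and 6 times in the Smox window. Sms had 2 entries, so the 7 members gave 8 windows, of which 6 held GGGCGG on either strand, against 32.7% of all 32851 windows of this length. The share of G and C in the 8 windows ran from 47.2% in 1 window of Sms to 80.0% in that of Odc1. The share over all windows was not matched for this, so no enrichment can be read from it. CACGTG, the E-box to which MYC and MAX bind and which reads the same on both strands, stood in 1 of the 8 windows, that of Sms, against 6.02% of all windows. TGATGCAA, a form of the sequence bound by ATF4 with C/EBP partners, was in 0 of the 8, against 0.791%. Sequence outside these 250 bases was not searched, so sites elsewhere in these genes are not covered. The 3 motifs share no letters in any of these windows. Of the members with an entry, Amd1, which rose, and Oaz2, Smox and 1 window of Sms, which fell, held GGGCGG. Odc1 and Sat1, which did not pass the test, held it too, while Oaz1, which fell, did not.

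The targeted gene checked the labels. Cxcl14 stood at 27.3 and 29.2 TPM without doxycycline and at 385 and 391 TPM with it (log2 change 3.74, SE 0.06, limma adjusted p = 1.1e-09). The depth of each library is unknown, since the tables hold no read counts and the low values showed no steps of whole reads. Between replicates the log2 values of all tested genes differed with an SD of 0.18 in the controls and 0.161 after doxycycline, against 0.688 to 0.738 between groups. Defining markers of colon epithelium were close to absent: 11 of 11 had a mean below 1 TPM, and Cdh1, Krt19, Cdx1 and Cdx2 were listed at 0 in every library. The 8 fibroblast markers summed to 4053 and 4205 TPM in control libraries, against 909 and 823 TPM in doxycycline libraries, led by Dcn, Col3a1 and Pdgfra. Dcn alone stood at 3075 and 3259 TPM in control libraries, against 485 and 464 TPM in doxycycline libraries. Col1a1 was at 2.43 and 2.14 TPM without doxycycline and 3.39 and 2.02 TPM with it, and was not called. Col1a2, Lum and Fap were below 1 TPM. The 10 macrophage markers summed to 13.4 and 11.5 TPM without doxycycline and 8.54 and 10.2 TPM with it. Of these 10, 7 had a mean below 1 TPM, with Laptm5, C1qa and C1qc at 0 in all libraries. The part of these marker differences in the results on polyamine genes was not tested, and in such bulk samples fewer cells of a type and less RNA per cell cannot be told apart.

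After doxycycline the polyamine genes did not move as a block. Amd1, Srm and Azin1 rose, Smox, Oaz2, Oaz1 and Sms fell, and Odc1 and Sat1 did not pass the test. The threshold was a Benjamini-Hochberg adjusted p under 0.05 over the 11359 genes whose 4 libraries averaged 1 TPM or more, on the log2(TPM + 1) scale, and all 9 members were tested. The 7 called members compare with 64.4% of all tested genes called in either direction. The 3 that rose compare with 29.0% called higher, and the 4 that fell with 35.4% called lower. Read against these shares, the count is not a result about the members, and what follows concerns which of them moved and by how much. Their median log2 change was -0.29, beside -0.04 over all tested genes. With 9 members this median is the value of Sat1 alone, which did not pass the test. In 8 of the 9 the control and doxycycline libraries did not overlap, as in 82.7% of all tested genes.

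**Figure D1:**
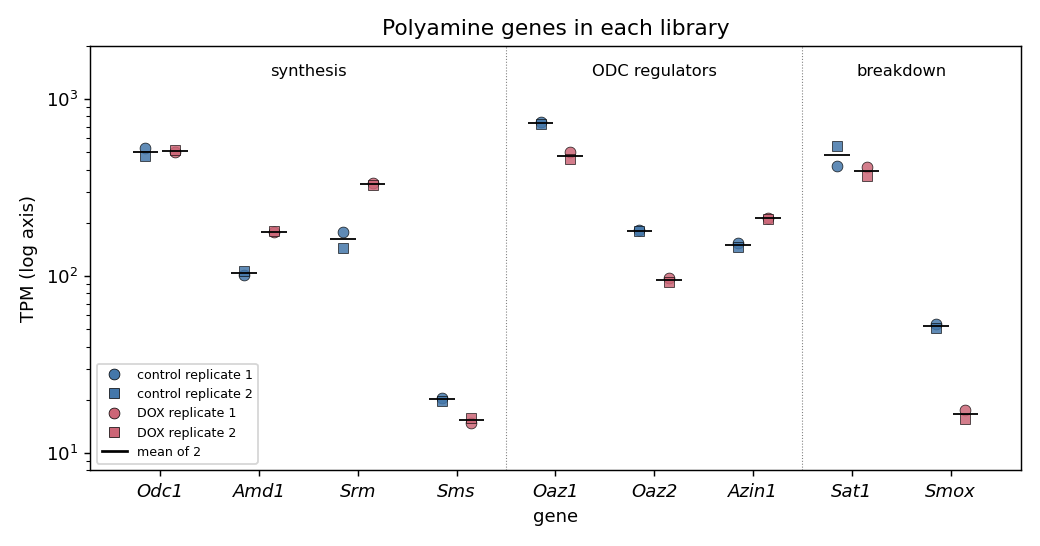
TPM of the 9 polyamine genes in each of the 4 libraries, on a log axis; points are libraries (blue control, red doxycycline, circles replicate 1, squares replicate 2) and black lines are means of 2. Smox shows the widest separation, from about 52.2 to 16.6 TPM, while the Odc1 libraries of both groups lie together near 500.

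The enzymes of synthesis differed among themselves. Odc1, the first enzyme of the pathway, stood at 532 and 476 TPM in control libraries, against 504 and 514 TPM in doxycycline libraries. Both doxycycline libraries lay between the 2 controls. The log2 change was 0.02 (SE 0.07, limma adjusted p = 0.85), with a 95% interval from -0.14 to 0.17, so these libraries leave room for a shift of either sign of that size. In size the Odc1 change was larger than that of 2.84% of the tested genes only.

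Amd1, which supplies the aminopropyl donor, stood at 102 and 108 TPM without doxycycline and at 178 and 180 TPM with it. Replicates lay close together and the groups far apart. The mean rose 1.71-fold, from 105 ± 3.98 to 179 ± 1.27 TPM (SD, n = 2; log2 change 0.76, SE 0.06, limma adjusted p = 4.9e-06). Amd1 has a near-identical gene, Amd2, which matched it at 99.6% over 3202 bases. Amd2 was listed at 0.307 and 0.886 TPM in control libraries, against 0.479 and 0.503 TPM in doxycycline libraries, below the level tested, and how reads shared by both were assigned is not given in the sources used here.

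Srm, which makes spermidine, stood at 178 and 144 TPM without doxycycline and at 338 and 328 TPM with it. The 2 controls differed from each other by more than the 2 doxycycline libraries did, yet both lay well below them. Srm showed the largest rise among the 9 members, 2.07-fold, from 161 ± 24.0 to 333 ± 6.60 TPM (SD, n = 2; log2 change 1.05, SE 0.09, limma adjusted p = 9.9e-06), and that change was larger in size than in 89.9% of tested genes. Sms, which makes spermine from spermidine, went the other way. It stood at 20.6 and 19.6 TPM in control libraries, against 14.7 and 15.9 TPM in doxycycline libraries, without overlap. The fall was small (ratio of means 0.761, log2 change -0.37, SE 0.09, limma adjusted p = 0.0045) and did not pass under quantile normalization, where the log2 change was -0.21 (adjusted p = 0.055). The Sms row also has 4 near-identical pseudogenes in GENCODE M21, among them Sms-ps, which is identical to it over 1101 bases, so its value is uncertain.

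Of the 3 regulators of ornithine decarboxylase among the members, both antizymes fell and the antizyme inhibitor rose. Oaz1, the main antizyme, was the most abundant member in the controls, at 747 and 724 TPM, and stood at 504 and 457 TPM after doxycycline. Every doxycycline library lay below every control. The fall was from 735 ± 16.8 to 480 ± 33.2 TPM (SD, n = 2; log2 change -0.61, SE 0.07, limma adjusted p = 5.1e-05). Oaz2, a second antizyme, stood at 182 and 180 TPM without doxycycline and at 97.03 and 92.6 TPM with it. Its fall was larger, to 0.524 of the control mean (log2 change -0.93, SE 0.06, limma adjusted p = 1.4e-06), and the spread within each group was small beside it. The Oaz1 row shares sequence with the pseudogene Oaz1-ps (99.7% over 685 bases) and the Oaz2 row with Oaz2-ps (98.7% over 471 bases).

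Azin1, the antizyme inhibitor, stood at 153 and 146 TPM in control libraries, against 214 and 211 TPM in doxycycline libraries. All doxycycline values exceeded all control values. The mean rose 1.42-fold, from 150 ± 4.83 to 212 ± 2.26 TPM (SD, n = 2; log2 change 0.50, SE 0.06, limma adjusted p = 6.6e-05). Azin1 had no near-identical copy in GENCODE M21, but an antisense gene, Gm49077, overlaps it, and whether the counting used strand is not given in the sources used here. At the RNA level both antizymes were thus lower and this inhibitor of them higher, while Odc1 itself did not pass the test.

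The genes of breakdown were both lower in the mean, and 1 of the 2 passed. Smox, spermine oxidase, which releases hydrogen peroxide as it works, stood at 53.5 and 50.9 TPM without doxycycline and at 17.6 and 15.5 TPM with it. The groups were far apart relative to the spread in either. Smox fell to 0.317 of the control mean, from 52.2 ± 1.86 to 16.6 ± 1.44 TPM (SD, n = 2; log2 change -1.60, SE 0.08, limma adjusted p = 4.5e-07), more in size than 96.3% of tested genes. Sat1, the acetyltransferase that commits spermidine and spermine to export or breakdown, stood at 418 and 546 TPM in control libraries, against 414 and 370 TPM in doxycycline libraries. The higher doxycycline library all but reached the lower control, and the controls differed more from each other than for any other member. The log2 change of -0.29 (SE 0.11) lay beside the threshold (limma adjusted p = 0.052). It passed in 6 of 14 alternatives, and its size depended on which control was kept. Leaving out control replicate 1 gave a log2 change of -0.48 (limma adjusted p = 0.0041), whereas leaving out control replicate 2 gave -0.09 (adjusted p = 0.36). Leaving out DOX replicate 1 gave -0.37 (limma adjusted p = 0.015) and leaving out DOX replicate 2 gave -0.21 (adjusted p = 0.16). With the replicate number as a block the adjusted p was 0.022.

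**Figure D2:**
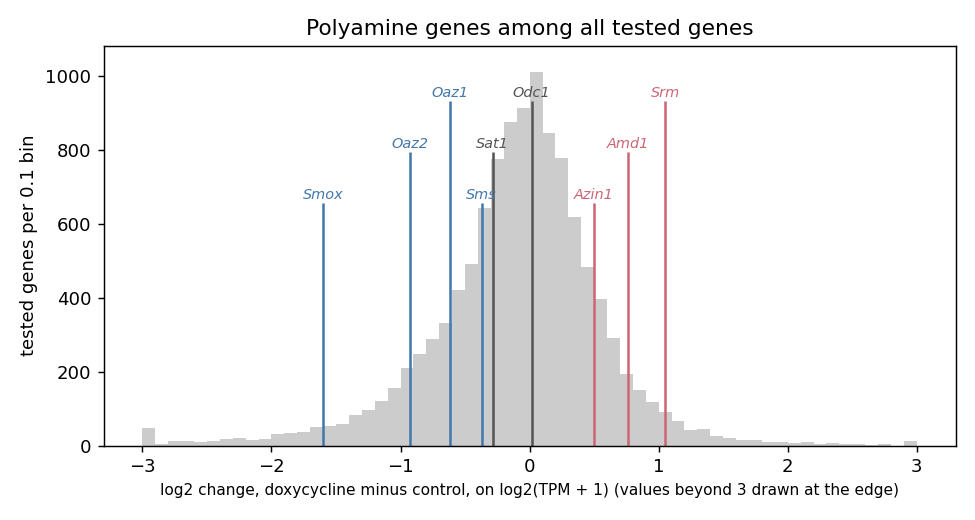
Histogram of the log2 change of all 11359 tested genes in bins of 0.1 (horizontal axis doxycycline minus control, vertical axis number of genes; values beyond 3 in size are drawn at the edge), with a line at each polyamine gene, red called higher, blue called lower, grey not called. The 9 genes run from Smox at -1.60 to Srm at 1.05, with Odc1 at 0.02 near the middle.

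The order of levels shifted with these changes. In the controls the mean TPM ran Oaz1, Odc1, Sat1, Oaz2, Srm, Azin1, Amd1, Smox and Sms, from 735 down to 20.1 TPM. The libraries of Odc1 and Sat1 overlapped, as did those of Srm and Azin1, and the means of Oaz2 and Srm were 19.8 TPM apart with SDs summing to 25.02 TPM, so those neighbours did not differ beyond their spread. After doxycycline the order was Odc1, Oaz1, Sat1, Srm, Azin1, Amd1, Oaz2, Smox and Sms, from 509 down to 15.3 TPM. Odc1 and Oaz1 were then 28.6 TPM apart with SDs summing to 40.3 TPM, and Smox and Sms overlapped. Oaz2 moved from the fourth place to the seventh, below Srm, Azin1 and Amd1. Odc1, Amd1, Sms, Oaz1 and Oaz2 have near-identical copies, so their places in the order are less certain.

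Ratios within a library show the same genes without any scaling between libraries. Odc1 stood to Oaz1 at 0.712 and 0.658 without doxycycline and at 1.00 and 1.12 with it, so that Oaz1 RNA exceeded Odc1 RNA in both controls, was level with it in DOX replicate 1 and lay below it in DOX replicate 2. The ratio of Odc1 to Azin1 was 3.47 and 3.25 in control libraries, against 2.36 and 2.44 in doxycycline libraries. Sat1 stood to Srm at 2.35 and 3.79 without doxycycline and at 1.23 and 1.13 with it, a ratio of acetyltransferase to spermidine synthase RNA that was lower in each doxycycline library than in either control. Amd1 to Srm was 0.573 and 0.746 in control libraries, against 0.527 and 0.547 in doxycycline libraries. The controls there differed from each other by more than control replicate 1 differed from the doxycycline libraries. Oaz1 stood to Oaz2 at 4.11 and 4.02 without doxycycline and at 5.19 and 4.93 with it, Oaz2 having the larger fall. These ratios are given as values, with no test. Odc1, Amd1, Oaz1 and Oaz2 have near-identical copies, and how shared reads were assigned is not given, so the size of these ratios is uncertain.

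**Figure D3:**
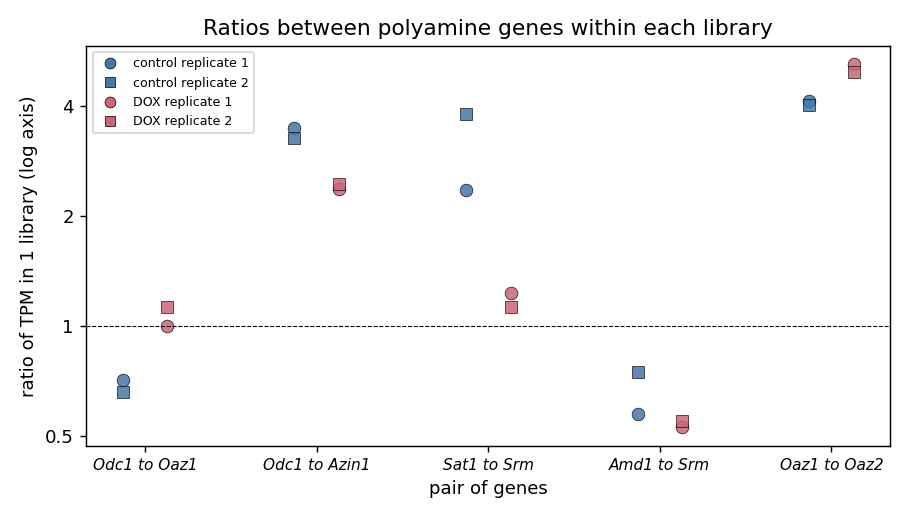
Ratio of the TPM of 2 polyamine genes within each of the 4 libraries, on a log axis with a dashed line at 1 (blue control, red doxycycline, circles replicate 1, squares replicate 2). The ratio of Odc1 to Oaz1 lies below 1 in the controls and at 1.00 and 1.12 after doxycycline, and that of Sat1 to Srm lies lower in both doxycycline libraries than in both controls.

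Further genes of the pathway came from lists of related enzymes, whose counts stand beside the same shares of all tested genes: 29.0% called higher, 35.4% called lower and 64.4% called in either direction. Lists this short give no result of their own from such counts. Of 7 other polyamine enzymes and regulators, 3 were tested, of which 0 rose and 2 fell. Azin2, a second antizyme inhibitor, stood at 31.1 and 29.7 TPM in control libraries, against 8.47 and 8.35 TPM in doxycycline libraries. It fell (log2 change -1.74, SE 0.09, limma adjusted p = 3.2e-07) and so went against Azin1. The more abundant inhibitor was higher and the less abundant one lower. Sat2, a relative of Sat1, fell from 18.1 ± 0.473 to 8.86 ± 0.982 TPM (SD, n = 2; log2 change -0.96, limma adjusted p = 3.8e-05). Paox, which oxidises acetylated polyamines, stood at 1.13 and 0.557 TPM without doxycycline and 1.64 and 1.36 TPM with it (log2 change 0.46, limma adjusted p = 0.070). Paox passed in 3 of the 12 alternatives that tested it, among them quantile normalization (log2 change 0.78, limma adjusted p = 0.0076). Paox exons overlap those of Echs1 on the opposite strand, and the pseudogene Gm19680 matches Paox at 99.9% over 1358 bases. The Paox value is therefore uncertain. It also hung on single libraries: the log2 change was 0.68 without control replicate 1 (limma adjusted p = 0.024), 0.23 without control replicate 2 (adjusted p = 0.31), and 0.38 when DOX replicate 1 was left out (adjusted p = 0.23). Oaz3, the antizyme of the testis, was listed at 0 in all 4 libraries, and Satl1, Agmat and Amd2 were below 1 TPM.

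Of 7 genes of ornithine supply and use, 3 were tested, of which 1 rose and 0 fell. Aldh18a1, which makes the precursor of proline and ornithine from glutamate, stood at 96.8 and 88.7 TPM in control libraries, against 196 and 206 TPM in doxycycline libraries (log2 change 1.11, SE 0.07, limma adjusted p = 9.6e-07). Oat, ornithine aminotransferase, stood at 123 and 112 TPM without doxycycline and 109 and 103 TPM with it (log2 change -0.15, limma adjusted p = 0.084). Its change was -0.21 without control replicate 2 (limma adjusted p = 0.036) and -0.08 without control replicate 1 (adjusted p = 0.33), and it also passed under quantile normalization (-0.20, adjusted p = 0.027). Slc25a15, the mitochondrial ornithine carrier, overlapped between groups, at 14.5 and 16.5 TPM in control libraries, against 16.2 and 14.7 TPM in doxycycline libraries. The arginases that release ornithine were below the level tested: Arg1 stood between 0.164 and 0.709 TPM over the 4 libraries and Arg2 between 0.0624 and 0.559 TPM.

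Spermidine is the donor for hypusine, a modified lysine that is made in the translation factor eIF5A. Of the 4 genes of this step, 3 rose and 1 fell, where 64.4% of all tested genes were called. Eif5a stood at 1189 and 1140 TPM without doxycycline and at 1831 and 1851 TPM with it (log2 change 0.66, SE 0.07, limma adjusted p = 3.4e-05). Both enzymes that make hypusine also rose: Dhps from 45.1 ± 2.24 to 63.3 ± 1.44 TPM and Dohh from 48.3 ± 4.05 to 70.9 ± 2.92 TPM (SD, n = 2), with log2 changes of 0.48 and 0.55. Eif5a2, a less abundant second form of the factor, fell from 31.0 ± 0.182 to 22.1 ± 1.08 TPM (SD, n = 2; log2 change -0.47). Dhps exons overlap those of Wdr83 on the opposite strand. Dohh exons overlap those of Gm48551 on the same strand, with identical sequence over 762 bases. Eif5a has 2 near-identical pseudogenes, with the longer match to Eif5al3-ps (97.2% over 434 bases). The single values of Dhps, Dohh and Eif5a are therefore less certain.

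S-adenosylmethionine feeds the Amd1 step, and methylthioadenosine is released each time an aminopropyl group is moved. Of 11 genes of this supply and salvage, 10 were tested, of which 7 rose and 1 fell, beside 29.0% and 35.4% of all tested genes, with a median log2 change of 0.31 beside -0.04 over all. Mat2a, the catalytic subunit of S-adenosylmethionine synthetase, rose from 260 ± 7.28 to 361 ± 2.77 TPM (SD, n = 2; log2 change 0.47, limma adjusted p = 9.2e-05). Its regulatory subunit gene Mat2b fell from 91.9 ± 0.144 to 68.6 ± 0.174 TPM (SD, n = 2; log2 change -0.42). Ahcy, which clears S-adenosylhomocysteine, rose 1.82-fold (log2 change 0.86), though a copy, Gm4737, matches it at 99.7% over 2083 bases. Mat2a exons overlap those of Particl on the opposite strand, and the pseudogene Gm9523 matches Mat2a at 99.1% over 106 bases. Mtap, the enzyme that opens the salvage of methylthioadenosine, stood at 479 and 500 TPM in control libraries, against 471 and 446 TPM in doxycycline libraries (log2 change -0.09, limma adjusted p = 0.21). It was called lower under quantile normalization (log2 change -0.19, limma adjusted p = 0.018). Of the later salvage enzymes Adi1, Enoph1 and Mri1 rose (log2 change 0.74, 0.38 and 0.32), and Apip overlapped between groups. Ahcyl1 and Ahcyl2, relatives of Ahcy, rose by less (log2 change 0.30 and 0.25). The call of Ahcyl2 was lost without DOX replicate 2 (adjusted p = 0.065).

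Of 10 genes of polyamine transport, 5 were tested, of which 2 rose and 3 fell, again where 64.4% of all tested genes were called. Atp13a4, a P-type ATPase related to the polyamine transporters Atp13a2 and Atp13a3, stood at 40.3 and 41.5 TPM without doxycycline and at 7.33 and 8.34 TPM with it. The log2 change was -2.25 (SE 0.09, limma adjusted p = 1.1e-07), larger in size than in 98.6% of tested genes. Atp13a2, which exports polyamines from lysosomes, was listed at 29.8 TPM in both controls and at 19.3 and 17.3 TPM with doxycycline, a fall of log2 change -0.67. Slc18b1, a vesicular polyamine transporter, fell from 49.5 ± 1.98 to 33.1 ± 0.948 TPM (SD, n = 2; log2 change -0.57). Slc3a2, the heavy chain shared by several amino acid transporters, rose (log2 change 1.30). It stood at 262 and 238 TPM in control libraries, against 600 and 631 TPM in doxycycline libraries. Stretches of up to 170 bases of Slc3a2 match 10 other genes on the same strand, 7 of them with listed values. Atp13a3, the most abundant of the 3 ATPases, stood at 147 and 158 TPM without doxycycline and 173 and 177 TPM with it (log2 change 0.20, limma adjusted p = 0.020). It did not hold in 5 of 14 alternatives. Leaving out control replicate 1 gave an adjusted p of 0.078, DOX replicate 1 one of 0.056 and DOX replicate 2 one of 0.12, and over all settings limma adjusted p ran from 0.0071 to 0.12.

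MYC is a known activator of Odc1, which makes its level of interest beside that of Odc1. Of 4 genes of MYC and MAX, 3 were tested and called higher, as were 29.0% of all tested genes, while Mycn was below 1 TPM. Myc stood at 168 and 147 TPM in control libraries, against 495 and 558 TPM in doxycycline libraries (log2 change 1.74, SE 0.08, limma adjusted p = 2.8e-07). Mycl, at a far lower level, rose from 3.81 ± 0.558 to 6.42 ± 1.14 TPM (SD, n = 2). Max stood at 173 and 188 TPM without doxycycline and 216 and 203 TPM with it (log2 change 0.21, limma adjusted p = 0.019), a call that 5 of 14 alternatives ended. Leaving out control replicate 1 gave an adjusted p of 0.091 and leaving out DOX replicate 1 one of 0.14, and over all settings limma adjusted p ran from 0.0069 to 0.14. The ratio of doxycycline to control means was 3.35 for Myc and 1.01 for Odc1 in the same libraries. Among the polyamine members this ratio ran from 0.317 for Smox to 2.07 for Srm, with 3 members called higher and 4 called lower. Whether MYC acted on Odc1 or on any other member was not tested.

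**Figure D4:**
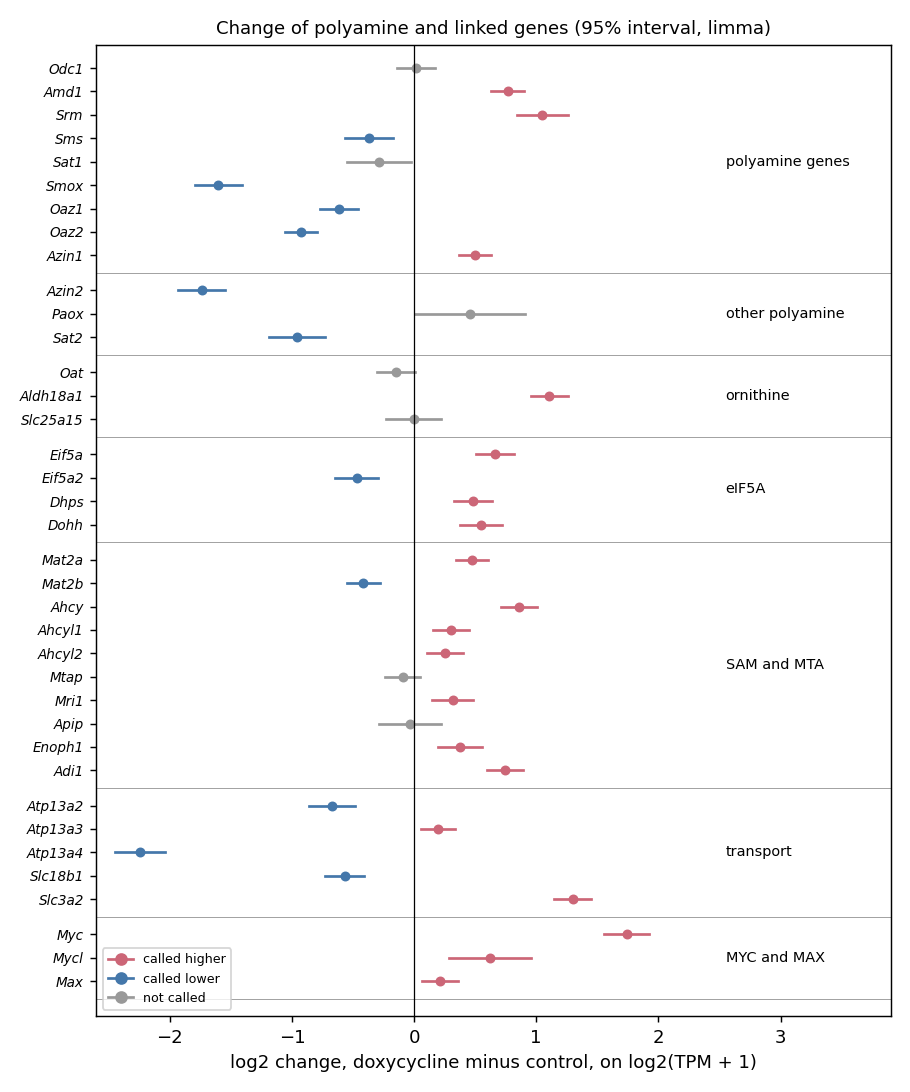
Log2 change (doxycycline minus control, on log2(TPM + 1)) with its 95% interval from limma for the 9 polyamine genes and the tested genes of the linked lists; red called higher, blue called lower, grey not called, and SAM and MTA stand for S-adenosylmethionine supply and methylthioadenosine salvage. Atp13a4 at -2.25 and Myc at 1.74 mark the ends, and the intervals of Odc1, Oat, Slc25a15, Mtap and Apip include 0.

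The pattern of Odc1 over the 4 libraries was shared with many genes. The 3 genes closest to it, by Euclidean distance of log2(TPM + 1) centred on each gene's mean, were Tusc1, Alg1 and Aifm1, at distances of 0.0127, 0.0150 and 0.0208. With 4 libraries in 2 groups this measure mostly finds genes with little change: 2072 tested genes outside the members lay within a distance of 0.2.

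Near-identical copies bear on single values. With matches of 97% identity and 100 bases as the minimum, 5 of the 9 members had a copy on the same strand in GENCODE M21: Amd1 with 5, Sms with 4, Odc1 with 2, and Oaz1 and Oaz2 with 1 each. Srm, Sat1, Smox and Azin1 had none. With 2 libraries a group the smallest two-sided p of an exact permutation test is 0.33. Each member's call therefore relies on the normal distribution that limma assumes. The variance used in each call is also borrowed in part from other genes.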

How the data were processed

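Groups came from the sample titles, 2 libraries each. The authors made the values and deposited them as TPM, in 1 file, and as FPKM (fragments scaled by length and library size), in another, each with gene symbols. Per the submitters' processing notes the build was mm39. Which aligner, quantifier and annotation they used is not given in the sources used here. The median ratio of TPM to FPKM in a library lay between 3.08 and 3.14.

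Genes averaging 1 TPM or more were tested on log2(TPM + 1) with limma 3.58.1 (R 4.3.3; eBayes with a mean-variance trend; 2 residual and 6.98 prior degrees of freedom), which understates the change of low genes. P-values were Benjamini-Hochberg adjusted over all tested genes. The fit was tested on simulated data. Copies were sought with blastn 2.17.0 against GENCODE M21, an earlier build than mm39. Motifs were searched on both strands of the RefSeq promoter windows.

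Members and lists were chosen with earlier results of these data known. Named genes are Cxcl14, the 9 members, the genes of the lists above and the 3 genes closest to Odc1. The 14 alternatives covered pseudocount, filter, unit, scaling, variance model, the replicate number as a block, and leaving out each library in turn.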

Additional observations from a re-analysis of the deposited data

How the results depend on the processing

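Over the 14 alternatives, 2776 to 3870 genes were called higher and 3356 to 4114 lower, against 3295 and 4017. The median log2 change over all tested genes was -0.04, and 0.05 under quantile normalization, the scaling that moved it most. Amd1, Srm, Azin1, Smox, Oaz1 and Oaz2 kept their direction and their call in each of the 14. Sms was lost under quantile normalization only. Odc1 passed in 0 of 14, with log2 changes from -0.06 to 0.10 and adjusted p from 0.18 to 0.99, and its sign differed in 2. Sat1 passed in 6, with log2 changes from -0.48 to -0.09. The cause of these moves was not tested. With the replicate number as a block, 3387 genes were called higher and 4114 lower, with 3 members higher and 5 lower, the added one being Sat1. The labels do not say that the numbers pair cultures, and same-numbered libraries deviated from their group means with a correlation of -0.00526 across genes, which are not independent replicates. Leaving out a replicate gave 2776 to 3077 higher and 3473 to 3656 lower. With 1 library left in a group, that library is assumed to vary like the other group. Depth is unknown, so no counting limit can be set for the low values of Amd2, Arg1, Arg2 or Paox.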
